A study of Mus musculus with 6 samples.

Results

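The genes described here are the immunoglobulin genes, which encode the heavy and light chains of antibodies, together with Jchain, which encodes the joining chain of polymeric IgA and IgM. Members were taken by annotation: every row of the count matrix with an immunoglobulin constant (C), variable (V), diversity (D), joining (J) or LV biotype and at least 1 count in any mouse, plus Jchain. This gave 125 members of 55487 rows, of which 28839 had a count in any mouse. The annotation held 269 such rows in all. The members were 11 constant-region genes, 103 V genes, 10 J genes and Jchain, while 0 of 19 D rows and 0 of 4 LV rows had a count. Ighe, the constant region of IgE, was at 0 in all 6 mice, where a count of 0 allows up to 0.112 to 0.280 CPM (counts divided by the normalized size of each library).

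The samples were mammary epithelial cells (MECs) of 10-week-old virgin female BALB/c mice at mixed stages of the estrous cycle, 3 wild-type and 3 IL-21isoTg, with 1 library for each mouse. IL-21isoTg mice carry a transgene, expressed in T cells, for a membrane-bound isoform of IL-21, a cytokine that acts on B cells among others. MECs of both genotypes were what remained after magnetic removal of cells bearing CD45, CD31 or CD140a, and CD45 is carried by B cells and by most leukocytes. The comparison asks whether the genotypes differ in the antibody transcripts left in these preparations. In bulk RNA, fewer cells of a type and less RNA per cell cannot be told apart.

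An antibody consists of paired heavy chains and light chains of kappa or lambda type. Each chain joins a V region, assembled from V, D and J segments in the heavy chain and from V and J segments in the light chain, to a constant region that gives the heavy chain its class. Naive B cells make IgM and IgD from the same heavy-chain transcripts, switched cells make IgG or IgA, and plasma cells secrete antibody in bulk. In the mammary gland, polymeric IgA joined by the J chain is carried across the epithelium into milk by the receptor encoded by Pigr.

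Close copies among these genes could share reads, and the sequences below show how close some of them are. Igkv1-117, the V gene with most counts, and Igkv1-110, the next kappa gene, have V exons of 313 bases that are identical at 303 positions (96.8%), with a longest identical run of 142 bases. The stretches below are from the GENCODE M21 transcripts of GRCm38 (C57BL/6), chr6:68121515-68121804 on the plus strand and chr6:68270955-68271244 on the plus strand, and capitals mark the 7 bases at which they differ.
Igkv1-117: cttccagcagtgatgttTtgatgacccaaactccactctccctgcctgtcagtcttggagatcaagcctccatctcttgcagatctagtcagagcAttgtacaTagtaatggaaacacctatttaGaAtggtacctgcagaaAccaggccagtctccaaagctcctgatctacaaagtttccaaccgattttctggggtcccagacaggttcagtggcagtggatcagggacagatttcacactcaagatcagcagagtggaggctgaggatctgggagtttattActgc
Igkv1-110: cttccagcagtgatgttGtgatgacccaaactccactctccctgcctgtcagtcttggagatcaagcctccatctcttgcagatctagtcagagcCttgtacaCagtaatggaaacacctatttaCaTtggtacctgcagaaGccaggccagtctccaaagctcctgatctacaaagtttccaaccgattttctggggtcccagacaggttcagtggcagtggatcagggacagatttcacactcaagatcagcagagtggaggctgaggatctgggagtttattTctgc
The 3 lambda constant regions are shown by the opening stretch of their coding sequence, on the minus strand of chromosome 16, with capitals at the 36 positions where not all 3 agree. Iglc2 and Iglc3 were identical at 143 of 150 bases shown, and at 96.5% of 314 bases aligned. Iglc1 was identical to Iglc2 at 116 and to Iglc3 at 117 of the 150 bases. Their positions were chr16:19061922-19062071 for Iglc1, chr16:19198703-19198852 for Iglc2 and chr16:19065532-19065681 for Iglc3.
Iglc1: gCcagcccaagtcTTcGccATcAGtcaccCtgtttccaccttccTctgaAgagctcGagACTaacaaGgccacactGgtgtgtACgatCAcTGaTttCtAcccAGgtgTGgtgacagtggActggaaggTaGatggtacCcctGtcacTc
Iglc2: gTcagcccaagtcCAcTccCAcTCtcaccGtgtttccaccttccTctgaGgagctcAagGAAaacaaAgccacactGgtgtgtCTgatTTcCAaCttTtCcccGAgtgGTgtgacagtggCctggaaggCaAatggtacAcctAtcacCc
Iglc3: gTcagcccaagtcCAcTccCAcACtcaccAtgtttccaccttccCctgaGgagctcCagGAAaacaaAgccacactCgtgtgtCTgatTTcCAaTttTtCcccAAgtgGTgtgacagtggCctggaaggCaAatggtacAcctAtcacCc
Reads from these pairs could be assigned to the other copy or set aside, depending on how multi-mapping reads were counted, which is not given in the sources used here. The values of single V genes and of single lambda genes are therefore uncertain. Sums over a chain are not changed by reads moved between its copies, but they would lack reads that were set aside. The genome is that of C57BL/6, and BALB/c carries a different heavy-chain locus with Ighg2a in place of Ighg2c, so the Ighg2c row is not a direct measure of the BALB/c gene. The heavy V rows are likewise those of C57BL/6 and not a direct measure of the V genes of these mice.

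Total counts ranged from 15902886 to 25719244, and a floor of 3 counts corresponded to 0.112 to 0.280 CPM. Immunoglobulin genes took 0.00220% to 0.00746% of all counts. Il21, the gene of the transgene product, had 0, 0 and 37 counts in wild-type mice 1, 2 and 3, and 795, 216 and 131 in IL-21isoTg mice 1, 2 and 3. All 3 transgenic mice were above the wild-type mice, with a log2 fold change of 4.98 (SE 1.27) and an adjusted p of 0.757 (edgeR's quasi-likelihood test, adjusted over all genes by Benjamini-Hochberg, as for every edgeR adjusted p below). Salivary gland genes, a list of 18, took 23.1%, 6.68% and 15.9% of counts in wild-type mice 1 to 3 and 22.7%, 4.97% and 41.3% in IL-21isoTg mice 1 to 3. These shares overlapped between the genotypes, and their part in the results below was not tested.

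Mammary epithelial genes, a list of 9, summed to between 6648 and 9840 CPM, so markers of the labelled cell type were present in every mouse. A plasma cell source of the members was checked against marker genes. Mzb1, an endoplasmic reticulum protein of antibody-secreting cells, had 0, 2 and 0 counts in wild-type mice and 1, 6 and 0 in IL-21isoTg mice. Tnfrsf17, the plasma cell receptor BCMA, had 1 count in all 6 mice together. These 2 markers were at or near 0, while other genes of the plasma cell list, among them Xbp1, Sdc1, Prdm1 and Irf4 described below, were detected, and the 15 genes summed to between 688 and 1119 CPM. Several of these genes are also used by epithelium, so a plasma cell source was not established, and the members are called immunoglobulin genes here. Genes that mark B cells were detected: Cd79a, a signalling chain of the B cell receptor, had 23, 14 and 29 counts in wild-type mice and 35, 35 and 19 in IL-21isoTg mice. Some other B cell genes were not seen in every mouse: Ms4a1, Cr2 and Blk had 0 counts in IL-21isoTg 3.

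No member passed an adjusted p of 0.05 between the genotypes. Of 125 members, 9 passed the filter on low counts (filterByExpr of edgeR) and were tested: Ighm, Ighd, Ighg1, Ighg3, Igha, Igkc, Iglc2, Igkv1-117 and Jchain. 0 of these 9 were called by edgeR's quasi-likelihood test, where 0% of all 17165 tested genes were called. At an unadjusted p under 0.05 the count was 0 of 9 members in either direction, beside 5.82% of all genes (3.19% higher and 2.63% lower in IL-21isoTg mice). In 0 of 9 tested members did the groups not overlap, against 12.1% of all genes. The median log2 fold change (IL-21isoTg over wild-type) of the tested members was 0.05, beside -0.02 over all genes, and 5 of 9 were above 0. Adjusted p-values of the members ran from 0.820 to 0.991.

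**Figure D1:**
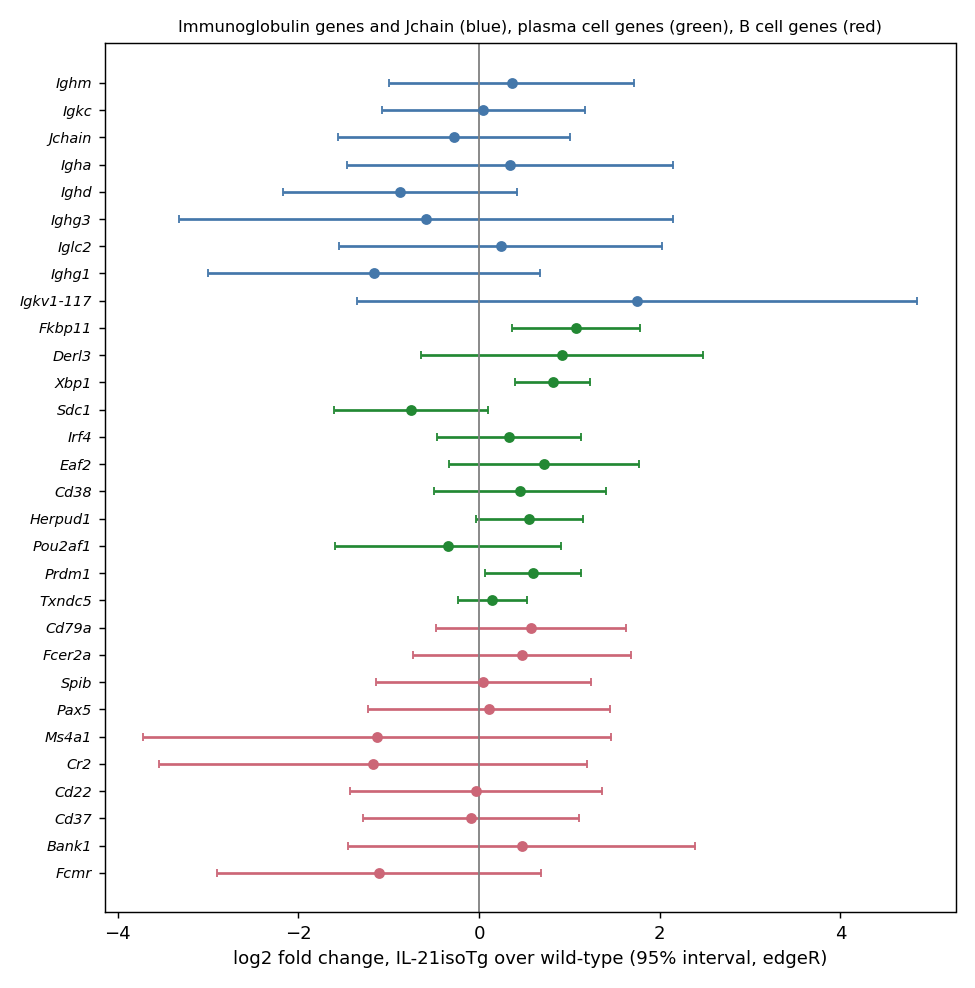
Log2 fold changes (IL-21isoTg over wild-type, x axis) with 95% intervals from edgeR for the 9 tested members (blue), 11 plasma cell genes (green) and 10 B cell genes (red). The intervals of all 9 members span 0, and those of Xbp1, Fkbp11 and Prdm1 lie above 0 before adjustment.

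Summed over the 124 immunoglobulin genes without Jchain, the level was 67.2, 18.0 and 31.5 CPM in wild-type mice 1 to 3 and 36.0, 64.0 and 37.9 CPM in IL-21isoTg mice 1 to 3. Wild-type 1 and IL-21isoTg 2 were the high mice, 1 of each genotype, and wild-type 2 was the lowest. The groups overlapped, with means of 38.9 ± 25.4 and 45.9 ± 15.6 CPM (SD, n = 3 each). The difference was 0.39 on the log2(CPM + 0.5) scale (exact permutation test, two-sided, p = 0.5), against a range of 3.74-fold over the 6 mice. With 3 mice against 3, that test cannot give a p below 0.1, and in the family of 32 such tests here the lowest Benjamini-Hochberg adjusted value was 0.8.

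**Figure D2:**
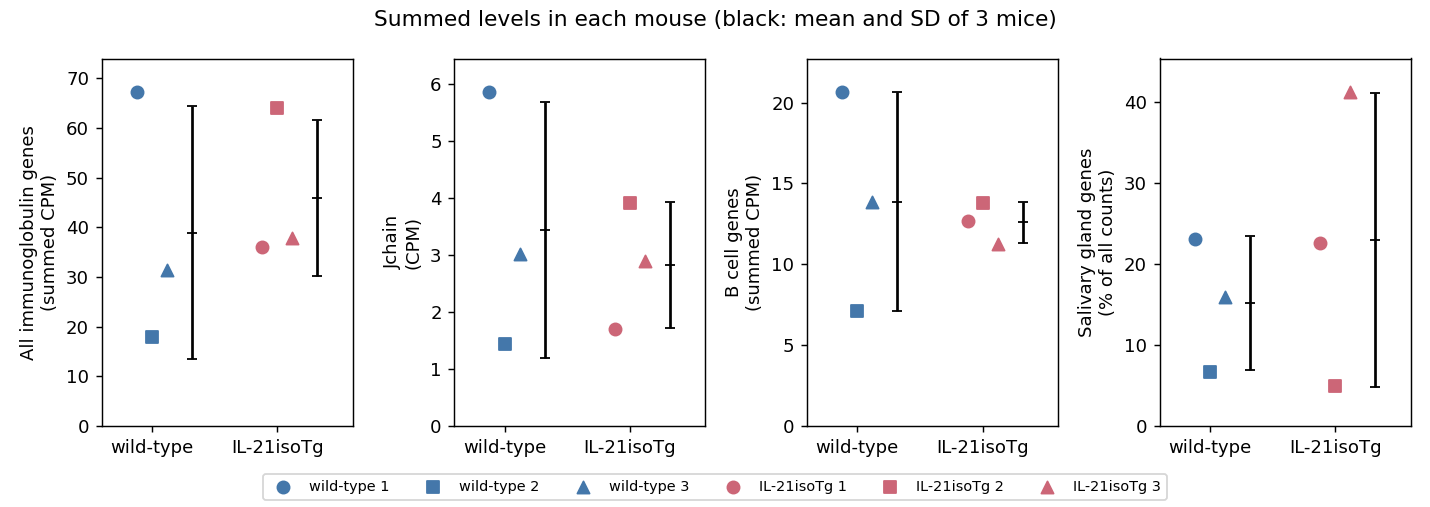
Summed CPM of all immunoglobulin genes, CPM of Jchain, summed CPM of the B cell genes, and the share of counts (percent) in salivary gland genes for each mouse, with the mean and SD of 3 mice in black. Both genotypes hold a high and a low mouse in the immunoglobulin panel, and wild-type 1 is highest there and among the B cell genes.

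The level of B cell genes was highest in the same mouse as the immunoglobulin sum. Summed over 14 B cell genes it was 20.7, 7.11 and 13.9 CPM in wild-type mice and 12.7, 13.8 and 11.3 in IL-21isoTg mice. Wild-type 1 was the highest and wild-type 2 the lowest on this list as well. The order of the other mice differed: IL-21isoTg 2, high in the immunoglobulin sum, was at 13.8 CPM here, beside 13.9 in wild-type 3.

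Heavy-chain constant regions were dominated by Ighm, the constant region of IgM (chr12:113418558-113422730, minus strand). It had 621, 99 and 294 counts in wild-type mice and 388, 809 and 136 in IL-21isoTg mice, or 28.0, 4.76 and 13.2 against 16.1, 30.1 and 12.7 CPM. The groups overlapped, with a log2 fold change of 0.36 (SE 0.59, 95% interval -0.99 to 1.72) and an edgeR adjusted p of 0.925.

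Ighd, the constant region of IgD (chr12:113406604-113416324, minus strand), had 75, 22 and 51 counts in wild-type mice and 41, 33 and 7 in IL-21isoTg mice. The log2 fold change was -0.88 (SE 0.56, 95% interval -2.17 to 0.42), and the edgeR adjusted p was 0.820, the lowest among the members. Without wild-type 1 the log2 fold change was -0.44. Set against IgM, IgD formed a smaller share in every IL-21isoTg mouse. Of IgM and IgD counts together, IgD took 10.8%, 18.2% and 14.8% in wild-type mice and 9.56%, 3.92% and 4.90% in IL-21isoTg mice. The groups did not overlap, but the exact binomial interval of IL-21isoTg 1 (6.95% to 12.7%) overlapped those of all 3 wild-type mice, and that of wild-type 1 (8.57% to 13.3%) reached below the upper bound of IL-21isoTg 3 (9.83%). The difference of means was -8.46 percentage points (exact permutation test, two-sided, p = 0.1, the smallest possible). This share was computed after values of its genes had been seen.

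The switched classes were less abundant and varied more from mouse to mouse, with ranges of 15.1-fold for the IgG sum and 12.2-fold for IgA against 6.33-fold for IgM. The IgG sum holds Ighg1, Ighg2b, Ighg2c and Ighg3 but not the Ighg2a of BALB/c, so it may be incomplete. Its range also rests on small counts, with 9 in wild-type 2 and 10 in IL-21isoTg 3. Igha, the constant region of IgA (chr12:113254830-113260236, minus strand), had 32, 80 and 62 counts in wild-type mice and 14, 76 and 76 in IL-21isoTg mice, or 1.44, 3.84 and 2.79 against 0.582, 2.83 and 7.09 CPM. Its highest level was in IL-21isoTg 3, the mouse with the largest salivary gland share (41.3%), and its lowest in IL-21isoTg 1, with a share of 22.7%. Among wild-type mice the order was the reverse. Igha was highest in wild-type 2, with a share of 6.68%, and lowest in wild-type 1, with 23.1%. A link between the 2 was not tested. Its log2 fold change was 0.34 (SE 0.78, 95% interval -1.47 to 2.15), with an edgeR adjusted p of 0.949.

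Among IgG genes, Ighg3 had 111, 1 and 14 counts in wild-type mice and 45, 38 and 4 in IL-21isoTg mice, and Ighg1 had 31, 8 and 13 against 6, 17 and 1. The log2 fold changes were -0.59 (SE 1.18) for Ighg3 and -1.16 (SE 0.80) for Ighg1, with edgeR adjusted p-values of 0.940 and 0.827. Without wild-type 1 they were 1.87 and -0.47, and without IL-21isoTg 2 that of Ighg1 was -2.05. Ighg2b was too low to be tested. It had 1, 0 and 0 counts in wild-type mice and 6, 10 and 5 in IL-21isoTg mice, so that the groups did not overlap. The ratio of its summed counts, scaled to library size, was 22.2 with a counting interval of 3.57 to 919. Of all 125 members, 2 were higher without overlap in IL-21isoTg mice, Ighg2b and Ighv6-6 (beside 5.54% of tested genes). Only 1, Ighj4, was lower without overlap (beside 6.54%), and none of these 3 was tested. Those percentages are over genes past the filter on low counts. Of the 125 members 9 passed it, so the percentages are not a background of like depth. Ighg2c had 2, 0 and 0 against 2, 12 and 0 counts, 12 of its 16 counts from IL-21isoTg 2.

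**Figure D3:**
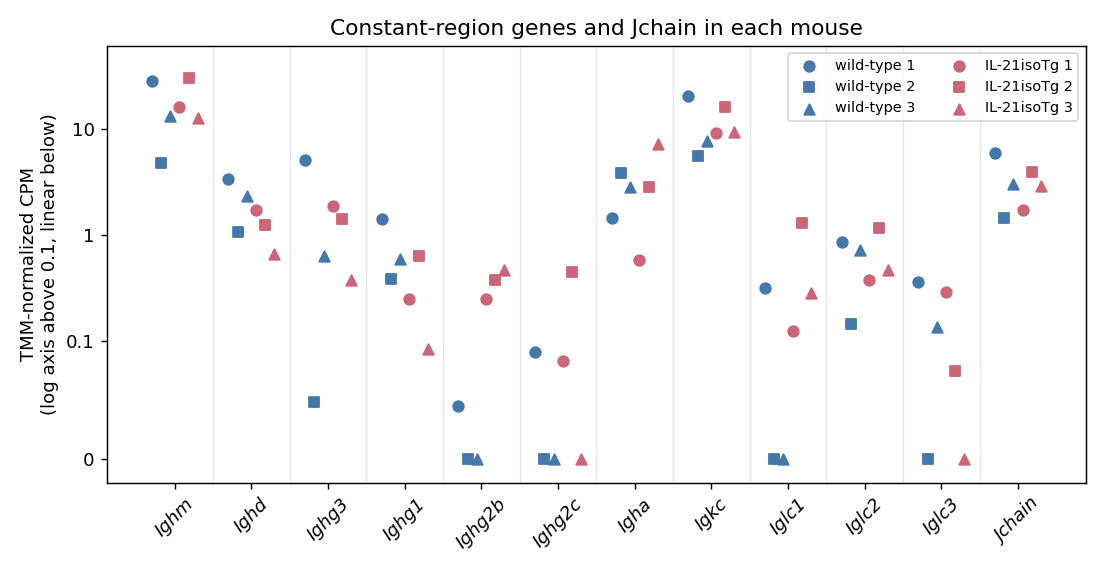
TMM-normalized CPM of each constant-region gene and Jchain in each mouse (y axis logarithmic above 0.1 CPM and linear below). Ighm and Igkc are the 2 highest genes in every mouse, and Ighg2b is near 0 in the wild-type mice and at 0.249 to 0.466 CPM in the IL-21isoTg mice.

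Within each mouse the classes divided differently. IgM took 71.1%, 47.1% and 67.7% of heavy-chain constant counts in wild-type mice and 77.3%, 81.3% and 59.4% in IL-21isoTg mice. IgA took 3.67%, 38.1% and 14.3% in wild-type mice, with exact binomial intervals of 2.52% to 5.14%, 31.5% to 45.03% and 11.1% to 17.9%. In IL-21isoTg mice it took 2.79%, 7.64% and 33.2%, with intervals of 1.53% to 4.63%, 6.06% to 9.47% and 27.1% to 39.7%. These intervals cover counting error only, and within each genotype they do not overlap between the mouse with the highest share and the other mice. The IgA shares of the genotypes thus overlapped widely, with a difference of means of -4.14 percentage points (exact permutation test, two-sided, p = 0.6). The mice with the 2 highest IgA shares, wild-type 2 and IL-21isoTg 3, were the 2 with the fewest heavy-chain counts, 210 and 229. IgG took 16.6%, 4.29% and 6.22% in wild-type mice and 11.8%, 7.74% and 4.37% in IL-21isoTg mice (exact permutation test, p = 0.9). Any Ighg2a counts missing from IgG would be missing from the total of every class share as well. Weighting each gene by its exon length, as transcripts per length, gave IgA shares of 2.73%, 30.7% and 10.7% against 2.05%, 5.59% and 26.3%, in the same order of mice.

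**Figure D4:**
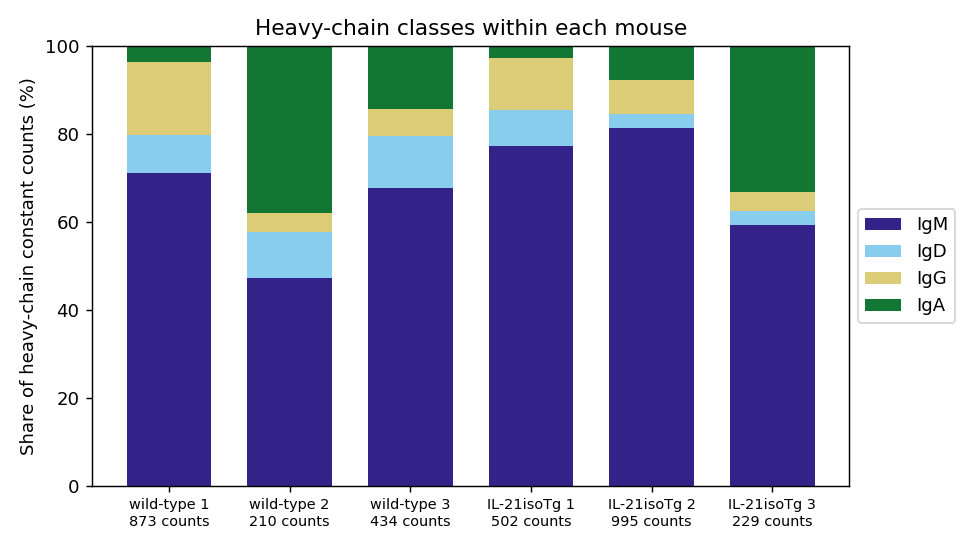
Share of heavy-chain constant-region counts (percent, y axis) taken by IgM, IgD, IgG and IgA in each mouse, with the total of such counts under each bar. IgA is the widest-ranging class, from 2.79% in IL-21isoTg 1 to 38.1% in wild-type 2, and IgM is the largest class in every mouse.

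Jchain is needed for polymeric IgA and IgM (chr5:88519809-88527891, minus strand). It had 130, 30 and 67 counts in wild-type mice and 41, 105 and 31 in IL-21isoTg mice, with a log2 fold change of -0.28 (SE 0.55, 95% interval -1.56 to 1.00) and an edgeR adjusted p of 0.940. Its counts ran with Ighm more than with Igha. Per 100 Ighm counts there were 20.9, 30.3 and 22.8 Jchain counts in wild-type mice and 10.6, 12.98 and 22.8 in IL-21isoTg mice, a range of less than 3-fold. Per 100 Igha counts there were 406, 37.5 and 108 against 293, 138 and 40.8, a range of more than 10-fold.

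Light chains were mostly kappa. Igkc, the kappa constant region (chr6:70726435-70726966, plus strand), had 447, 114 and 170 counts in wild-type mice and 219, 425 and 100 in IL-21isoTg mice. Its log2 fold change was 0.05 (SE 0.49, 95% interval -1.08 to 1.17), with an edgeR adjusted p of 0.991. Per kilobase of exon, Igkc stood above Ighm in every mouse: the Ighm to Igkc ratio per length was 0.39, 0.24 and 0.49 in wild-type mice and 0.50, 0.54 and 0.38 in IL-21isoTg mice.

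Lambda constant regions took 7.07%, 2.56% and 10.1% of light-chain constant counts in wild-type mice and 7.98%, 13.8% and 7.41% in IL-21isoTg mice (exact permutation test, p = 0.4). Iglc2 was the most counted, with 19, 3 and 16 against 9, 31 and 5 counts. Iglc1 had 7, 0 and 0 against 3, 35 and 3, so that 35 of its 48 counts came from IL-21isoTg 2. Iglc3 had 8, 0 and 3 against 7, 2 and 0, and it shares 93 bases of exon with an antisense gene, 2010309G21Rik, from which its reads can be told apart only if strand was used in counting.

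V genes carry the part of the chain that differs from B cell clone to clone. They had 123, 45 and 64 counts in wild-type mice and 115, 229 and 69 in IL-21isoTg mice, over 37 heavy, 63 kappa and 3 lambda genes. Of V and constant counts together, V genes took 8.33%, 12.1% and 9.32% in wild-type mice and 13.5%, 13.3% and 17.0% in IL-21isoTg mice. All 3 IL-21isoTg mice were above all 3 wild-type mice, with a difference of 4.68 percentage points (exact permutation test, two-sided, p = 0.1, the smallest possible). The interval of wild-type 2 (8.96% to 15.9%) overlapped those of all 3 IL-21isoTg mice. This share too was computed after values had been seen. Any V reads set aside in counting would be missing from it and from the V sums below, by an amount not known here. Heavy V genes summed to 1.13, 0.673 and 0.630 CPM in wild-type mice and 1.37, 1.82 and 2.61 CPM in IL-21isoTg mice, also without overlap (log2 difference 0.88, exact permutation test, p = 0.1, and a difference of 0.48 with a pseudocount of 2 CPM in place of 0.5). Kappa V genes, at 4.15, 1.44 and 2.16 against 3.33, 5.55 and 3.26 CPM, overlapped (exact permutation test, p = 0.3).

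**Figure D5:**
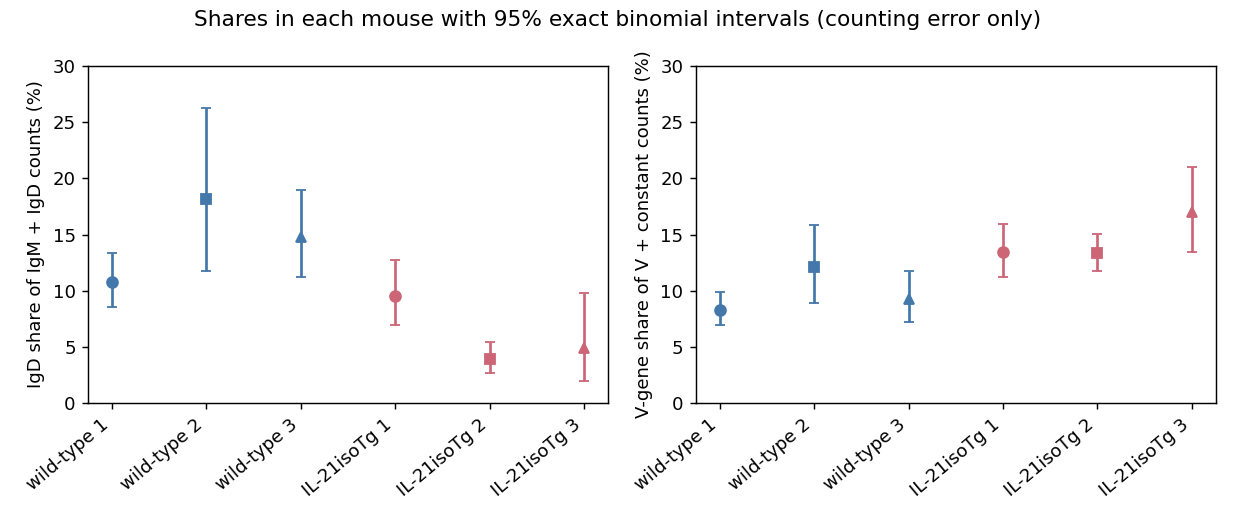
IgD as a share of IgM and IgD counts (left) and V genes as a share of V and constant counts (right), in percent for each mouse, with 95% exact binomial intervals that cover counting error only. The IgD shares of the IL-21isoTg mice, 3.92% to 9.56%, lie below those of the wild-type mice, and their V shares, 13.3% to 17.0%, lie above them.

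The V genes with most counts differed from mouse to mouse. Of the 103 V genes, 62 had fewer than 6 counts in all and so could not have been seen in all 6 mice, and the number of mice per V gene is therefore not read further. Igkv1-117 had 18, 0 and 0 counts in wild-type mice and 7, 29 and 16 in IL-21isoTg mice. It led the V counts of IL-21isoTg 2 and 3, and shared the lead in wild-type 1 with Igkv1-110. Its log2 fold change was 1.75 (SE 1.34, 95% interval -1.35 to 4.84), with an edgeR adjusted p of 0.835. Igkv1-110 had 18, 2 and 0 against 0, 19 and 0 counts. The kappa gene Igkv4-86 led in IL-21isoTg 1 and shared the lead with Igkv5-43 in wild-type 3. It had 2, 0 and 6 counts in wild-type mice against 16, 1 and 0 in IL-21isoTg mice. Igkv14-100 led in wild-type 2 with 8 counts, its whole total.

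The leading V gene took 14.6%, 17.8% and 9.38% of V counts in wild-type mice and 13.9%, 12.7% and 23.2% in IL-21isoTg mice. Thinned to 45 V counts, the expected number of V genes was 22.9, 20 and 21.9 in wild-type mice and 22.1, 24.9 and 15.005 in IL-21isoTg mice. IL-21isoTg 3 thus had the fewest V genes at equal depth, and also the largest leading share. That share came from 69 V counts, and its exact binomial interval (13.9% to 34.9%) overlapped those of all other mice.

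Among heavy V genes the most counted were Ighv4-1, Ighv6-6, Ighv2-2 and Ighv2-9. Ighv4-1 had 0, 0 and 1 counts in wild-type mice and 0, 2 and 10 in IL-21isoTg mice, and led in IL-21isoTg 3. Ighv6-6 had 0 in all wild-type mice and 4, 6 and 2 in IL-21isoTg mice, where IL-21isoTg 3 was itself under the floor of 3 counts. Ighv2-2 had 0, 1 and 0 against 5, 5 and 0 counts, and Ighv2-9 had 4, 3 and 0 against 4, 0 and 0, leading in wild-type 1 together with Ighv1-18. Leaders elsewhere were Ighv9-3 in wild-type 2, Ighv2-6 and Ighv10-1 in wild-type 3, and Ighv2-3 in IL-21isoTg 2, each with 4 to 9 counts. The Ighv1 family, 46.9% of heavy V genes annotated, held 18.4% of heavy V counts, and the Ighv2 family, 7.96% of genes, held 23.3%, pooled over mice. The genes annotated are those of C57BL/6, so these shares are not a direct measure of family use in BALB/c mice. In single mice the order varied: Ighv2 had 0 of 28 heavy V counts in IL-21isoTg 3, where Ighv1 had 9, and 6 against 9 in wild-type 1. Among kappa genes, the Igkv1 family, 9.80% of genes, held 32.9% of the counts pooled over mice. This rested on 3 mice: the family had 45 of 92 kappa V counts in wild-type 1, 63 of 149 in IL-21isoTg 2 and 19 of 35 in IL-21isoTg 3, against 4 of 30, 4 of 48 and 8 of 80 in wild-type 2, wild-type 3 and IL-21isoTg 1.

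Lambda V genes were led by Iglv2, with 0, 0 and 1 counts in wild-type mice and 0, 14 and 6 in IL-21isoTg mice. Iglv1 had 3, 1 and 0 against 2, 10 and 0, and Iglv3 had 3, 0 and 1 against 0, 7 and 0. IL-21isoTg 2 gave 31 of the 48 lambda V counts. J genes had 38 counts in all, among them Ighj4 with 1, 1 and 2 counts in wild-type mice and 0 in all IL-21isoTg mice, with every library under the floor of 3 counts. Ighj4 was named after its values were seen.

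Genes of antibody-secreting cells other than the members were measured beside them. Of 15 plasma cell genes 11 were tested, 0 were called, and 3 were higher at an unadjusted p under 0.05 (beside 3.19% of all genes), with a median log2 fold change of 0.56. The 3 were Xbp1, Fkbp11 and Prdm1, which secretory epithelium also uses. Xbp1, a transcription factor of the secretory pathway, had 4869, 4502 and 5760 counts in wild-type mice and 10061, 9476 and 4840 in IL-21isoTg mice. In CPM these were 219.6, 216.3 and 259.2 against 418.3, 352.8 and 451.4, without overlap (log2 fold change 0.81, SE 0.18, edgeR adjusted p = 0.645). By DESeq2 its adjusted p was 0.0104. Fkbp11, a secretory pathway peptidyl-prolyl isomerase, had a log2 fold change of 1.07 (SE 0.31), and Prdm1, the regulator Blimp-1, had one of 0.60 (SE 0.23), with edgeR adjusted p-values of 0.809 for both. Genes closer to the B lineage gave 31, 14 and 25 against 20, 31 and 5 counts for Pou2af1, a B cell coactivator, and 84, 46 and 93 against 96, 134 and 41 for Irf4. Sdc1, which epithelium also expresses, had a log2 fold change of -0.75 (SE 0.37), and -0.22 without wild-type 1.

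Of 14 B cell genes 11 were tested, 0 were called, and 0 reached an unadjusted p under 0.05, with a median of -0.04. Ms4a1, which encodes CD20, had 25, 6 and 10 counts in wild-type mice and 1, 19 and 0 in IL-21isoTg mice, and Cd79b had 27, 7 and 3 against 22, 9 and 7. Of 11 germinal centre and receptor-assembly genes 4 were tested and 0 were called, with a median of -0.02. Of 14 leukocyte and T cell genes 13 were tested and 0 were called, and their summed level was 34.2, 20.4 and 38.9 CPM in wild-type mice and 24.6, 27.3 and 39.3 in IL-21isoTg mice.

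Of 17 genes of IgA transport and homing, 15 were tested and 0 were called. Pigr had 390.5, 135.9 and 191.5 CPM in wild-type mice and 374.6, 102.8 and 1556 in IL-21isoTg mice, and the mouse with the high value was again IL-21isoTg 3. Its log2 fold change was 1.501 (SE 0.86), and 0.015 without IL-21isoTg 3. Ccl28, a chemokine that attracts IgA-secreting cells, was at 14.1, 13.1 and 16.8 against 42.0, 5.29 and 53.3 CPM, and its receptor gene Ccr10 had 4, 19 and 18 against 15, 13 and 4 counts. Madcam1, a vessel ligand for gut-homing cells, had 9, 3 and 16 against 56, 35 and 9 counts (log2 fold change 1.82, SE 0.69, edgeR adjusted p = 0.809). Pigr and Ccl28 are also made by salivary gland, and the share of salivary gland genes was 41.3% in IL-21isoTg 3, whose part in these values was not tested.

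All 3 IL-21 genes were tested, 0 were called, and 2, Il21 and Il2rg, were higher at an unadjusted p under 0.05 (beside 3.19% of all genes). Il21 is the gene of the transgene product that defines the groups, so its difference is not read as a result here. The source of its transcripts in cells left after removal of CD45-bearing cells was not tested. Il2rg, the common gamma chain, had 55, 31 and 37 counts in wild-type mice and 178, 100 and 31 in IL-21isoTg mice (log2 fold change 1.32, SE 0.45). Il21r, the receptor, had 25, 11 and 41 against 17, 55 and 25 counts (log2 fold change 0.52, SE 0.63).

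The genes whose level over the 6 mice was most like the immunoglobulin sum were Muc20, a cell-surface mucin (Pearson r = 0.986 over 6 mice, of 15382 genes considered), Slc20a1, a phosphate transporter (r = 0.979), and Wdr62 (r = 0.977), followed by Churc1, Sh3bp5l, Dpm2, Chd7, Gm4430, Rnf19b and Usp36. These correlations are a description, since they are the highest of many over 6 libraries that share their depth and normalization.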

How the data were processed

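RNA of mammary epithelial cells from 3 wild-type and 3 IL-21isoTg mice was poly(A)-selected, made into directional libraries and sequenced as 150-bp read pairs. The authors deposited raw counts of reads for each gene and mouse, and these counts were used here without change. The submitters' processing notes name FastQC 0.11.7, Trimmomatic 0.38, HISAT2 2.1.0, SAMtools 1.9, featureCounts 1.6.3, DESeq2 1.24.0 and the build mm10. The settings, the strand setting and the annotation are not given in the sources used here, so how reads of near-identical V genes were counted is unknown. Tables of size-factor scaled values and of the authors' own comparison (fold changes, p-values) were not used.

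Genes were filtered with filterByExpr (minimum count 10, minimum total 15), scaled with TMM, and compared with edgeR 4.0.16 (quasi-likelihood test, robust, genotype as the only term, R 4.3.3). P-values were adjusted by Benjamini-Hochberg over 17165 genes. CPM uses TMM library sizes, and sums were compared on log2(CPM + 0.5). Single values and shares were compared by exact permutation tests (two-sided, over every split of the mice), which cannot go below p = 0.1 with 3 mice against 3. Each sample is labelled as a mouse of its own. Intervals of shares are exact Clopper-Pearson (95%, scipy 1.17.1), and like the floors they cover counting error alone. Of the 125 members, 125 were found in GENCODE M21 (GRCm38) under the same symbol.

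Genes were named by rule: constant-region genes with at least 10 counts and Jchain, the 3 V genes with most counts per chain, the leading V gene per chain and mouse, members past the threshold, list genes with an unadjusted p under 0.05 and further genes of the lists, of which some are not reported here, and the 10 genes most like the sum. The members and the 10 gene lists were chosen with earlier results of these data known. Alternatives were DESeq2 1.42.0, limma-voom (limma 3.58.1), the likelihood ratio test, other scalings, filters and pseudocounts, a replicate block, and omission of single mice. The gene-level fits were tested on simulated counts with known changes.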

Additional observations from a re-analysis of the deposited data

How the results depend on the processing

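No member was called under any alternative run, with 125 members tested without the filter on low counts and 4 to 10 in the other settings. Counts over all genes changed: 14 genes were higher in IL-21isoTg without the filter on low counts, 72 with DESeq2 (9 lower) and 52 with edgeR's likelihood ratio test (13 lower), against 0 of each in the test reported, where 548 and 451 had an unadjusted p under 0.05. Leaving out each mouse gave 0 to 6 higher and 0 lower genes, the 6 without wild-type 3. Without the filter, Ighg2b, Ighv6-6 and Iglv2 had unadjusted p-values of 0.0208, 0.0289 and 0.0362 (edgeR, adjusted p = 0.799 for each). Without wild-type 1, Igkc (log2 fold change 0.81) and Igkv1-117 (7.30) had unadjusted p-values under 0.05, with 0 adjusted calls. Both remaining wild-type mice were at 0 for Igkv1-117, so its fitted value is no bound. Xbp1 was called by DESeq2 (log2 fold change 0.83, adjusted p = 0.0104).

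On the log2 scale the IgG sum turned to -0.044 with raw library totals and to -0.024 with a pseudocount of 2 CPM. The IgA sum turned to 0.0017 with DESeq2 size factors and to 0.078 with a pseudocount of 2 CPM, and the kappa constant sum to -0.064 with raw totals. With limma-voom, Igha was at -0.39 and Ighg3 at 0.95. The cause of these turns was not tested.

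Deviations of same-numbered wild-type and IL-21isoTg mice had correlations of -0.26, 0.10 and -0.06. These values cannot decide whether the numbers pair the mice, since each deviation is from the mean of a small group. Whether same-numbered mice were paired is therefore not known here. With the replicate number as a block 0 genes were called, and Igha was at -0.10 and Ighg3 at 0.24.

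Directions also turned when 1 mouse was left out. The summed immunoglobulin difference ran from -0.053 without wild-type 2 to 0.88 without wild-type 1, constant genes from -0.13 to 0.83, heavy constant genes from -0.12 to 0.84, IgM from -0.069 to 1.15, IgG from -0.52 to 0.94, IgA from -0.67 to 0.73 and kappa constant from -0.17 to 0.73. The IgA share difference ran from -13.5 percentage points without IL-21isoTg 3 to 5.56 without wild-type 2, and Jchain per 100 Igha from -99.9 to 84.5. Log2 fold changes ran from -0.087 to 1.14 for Ighm, -0.28 to 0.81 for Igkc, -0.64 to 0.35 for Jchain, -0.66 to 0.86 for Igha, -1.16 to 1.87 for Ighg3, -0.47 to 0.64 for Iglc2 and -0.76 to 0.018 for Ccr10. Without a turn of sign, they ran from -1.21 to -0.44 for Ighd, -2.05 to -0.47 for Ighg1, 1.18 to 7.30 for Igkv1-117, -1.004 to -0.22 for Sdc1, 0.015 to 2.07 for Pigr, 0.71 to 1.70 for Ccl28, 0.17 to 1.01 for Il21r and 4.16 to 11.5 for Il21, the last against wild-type mice at 0 and so no bound. The IgD share of IgM and IgD (-10.4 to -6.66 points) and the V share (3.48 to 5.77 points), both alternatives chosen after seeing the data, kept their sign without each mouse.

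Depth limits these results: 94 of 125 members had fewer than 10 counts in all mice together, and a difference in them was not detectable at this depth.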

Other observations

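Receptors that bind antibody and other markers were measured in the same libraries. Of 11 Fc receptor genes 3 were tested and 0 were called by edgeR's quasi-likelihood test, with a median log2 fold change of 0.28. Of 8 tested macrophage genes 0 were called, with a median of -0.08 and 3 of 8 above 0. Only 1, C1qc, a complement chain, was higher at an unadjusted p under 0.05 (beside 3.19% of all genes). It had 3, 10 and 5 counts in wild-type mice against 17, 19 and 15 in IL-21isoTg mice. Of 9 mammary epithelial genes 0 were called, and Elf5, an alveolar transcription factor, was at 95.8, 128.0 and 130.7 CPM against 230.5, 201.5 and 142.1 (log2 fold change 0.70, SE 0.22). Of 15 tested salivary gland genes 0 were called, with a median of 1.02, and Prh1 was at 40.2, 13.02 and 52.5 against 83.6, 56.9 and 287.2 CPM. Immunoglobulin pseudogenes, 164 rows, had 5 counts in all 6 mice together.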
